A study of Rattus norvegicus with 59 samples.

Results

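Translation initiation and elongation factors were followed in the livers of rats given a single injection of cadmium (Cd) or chromium (Cr). The members were all probe sets of the array annotated to exactly 1 gene whose symbol begins with Eif or Eef and a digit, leaving out the kinases named Eif2ak and Eef2k. This rule used names and no measured value, but it was chosen with earlier results of these data known. It gave 84 probe sets of 55 genes among 31042 probe sets tested. Of these genes, 33 had 1 probe set and 22 had several, at most 4. A further 5 factor probe sets carried several symbols and were left out. A gene was read on its brightest probe set, the one with the highest mean signal over all arrays.

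Male Sprague-Dawley rats received CdCl2 at 1.25 mg/kg, Na2Cr2O7 at a dose labelled 20 mg/kg, or the vehicle, sterile saline, by intraperitoneal injection, and whole livers were taken on days 1, 3 and 7. The methods name a lower Cr dose for the arrays in 1 sentence. They also state that the high dose was chosen, and in their list of doses the high one is 20 mg/kg, so they are at odds with themselves. The ages of the rats are not given in the sources used here. RNA of each liver was hybridised to 1 Affymetrix rat genome array, 59 arrays in 12 groups of 5 livers, apart from 4 Cd-exposed livers on day 1. The labels of that group skip the number 3. Per the methods, 1 Cd-exposed liver of day 1, whose number they do not give, was left out. It had not taken up Cd and grouped with the controls. Each metal had its own controls on each day, and each exposed group was set against the controls of the same metal and day. Values were the deposited log2 signals of robust multi-array averaging (RMA), which brings all arrays to the same overall distribution, so a change is relative to the other transcripts of the liver. Array medians lay between 5.38 and 5.46, and arrays of 1 group correlated at 0.982 to 0.996.

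Initiation factors bring the initiator tRNA and the small ribosomal subunit to the capped end of an mRNA, scan to the start codon and join the large subunit, and elongation factors then deliver each aminoacyl-tRNA and move the ribosome along. In the liver, which makes most plasma proteins, this machinery works at a high rate. It is controlled mainly through the phosphorylation of eIF2, which blocks its recycling by eIF2B, and through the binding of eIF4E by its inhibitors, and neither can be read from mRNA levels.

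The upstream sequence of 50 of the 55 genes was found in RefSeq's promoter table (rat build GRCr8). Eef1d, Eif3h, Eif4b, Eif4e3 and Eif4ebp1 are not in it. The 250 bases before the annotated start were searched on both strands for CACGTG, the E-box recognised by MYC and its relatives, and for TGATGNAA, the element recognised by C/EBP-ATF dimers. CACGTG occurred in 10 of the 50 windows (20%), against 5.59% of all 33469 promoters in the table. Those promoters were not matched to the members in base composition or in expression in liver. TGATGNAA occurred in 1 window, that of Eif2s2, or 2% against 3.4%. A pair of windows with the E-box, of Eif3b and Eif3f, are shown beside those of Eef1b2 and Eif2s1, which hold neither motif, because all 4 genes rose after Cr and their windows overlap no annotated gene. Each runs 5′ to 3′ on the strand of the gene, with CACGTG in capitals.

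Eif3b, a subunit of the eIF3 scaffold, lies on the minus strand with this window at chr12:19334769-19335018, and the E-box begins 57 bases before the start. Eif3f, another eIF3 subunit, lies on the plus strand with its window at chr1:172368812-172369061 and the E-box 59 bases before the start. The windows of Eef1b2 (chr9:72073841-72074090) and Eif2s1 (chr6:103405630-103405879) are on the plus strand.
Eif3b: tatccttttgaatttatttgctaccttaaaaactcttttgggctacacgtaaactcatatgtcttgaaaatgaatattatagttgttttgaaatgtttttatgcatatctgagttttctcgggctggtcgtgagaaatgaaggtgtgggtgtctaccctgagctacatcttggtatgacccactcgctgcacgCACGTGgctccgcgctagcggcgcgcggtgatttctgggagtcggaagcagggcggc
Eif3f: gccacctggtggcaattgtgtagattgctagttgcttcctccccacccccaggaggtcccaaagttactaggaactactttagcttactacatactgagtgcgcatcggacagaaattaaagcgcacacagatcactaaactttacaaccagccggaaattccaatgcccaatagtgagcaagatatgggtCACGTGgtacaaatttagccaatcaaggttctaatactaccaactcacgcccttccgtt
Eef1b2: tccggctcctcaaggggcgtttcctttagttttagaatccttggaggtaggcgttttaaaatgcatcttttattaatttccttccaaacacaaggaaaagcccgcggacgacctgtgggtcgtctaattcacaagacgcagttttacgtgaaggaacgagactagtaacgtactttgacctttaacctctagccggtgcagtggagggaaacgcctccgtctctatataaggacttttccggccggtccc
Eif2s1: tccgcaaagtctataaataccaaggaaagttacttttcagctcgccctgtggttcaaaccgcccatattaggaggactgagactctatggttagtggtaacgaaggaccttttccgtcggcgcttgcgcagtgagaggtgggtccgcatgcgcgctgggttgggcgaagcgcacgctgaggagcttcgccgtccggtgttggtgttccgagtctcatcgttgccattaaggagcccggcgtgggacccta
On day 1, 21.5% of all genes were higher after Cr and 9.3% after Cd at an adjusted p of 0.05 or less. Of the 10 genes with the E-box, 7 were higher 1 day after Cr, with a median log2 fold change of 0.35, and of the 40 without it 32 were higher, with a median of 0.51. After Cd the counts were 3 of 10 with the E-box and 9 of 40 without. A match is a string of letters and not a bound site, and its part in any change was not tested.

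One day after Cr the translation factors rose together. Of the 84 probe sets, 55 (65.5%) were higher than in same-day controls at an adjusted p of 0.05 or less, where 14.8% of all probe sets tested were higher, and 3 were lower, where 11.2% of all were lower (limma, Benjamini-Hochberg over all probe sets). By gene, 43 of 55 were higher, where 21.5% of all genes were, and 1 was lower (12.8% of all). The median log2 fold change of the 84 was 0.42, and that of all probe sets -0.03. Among probe sets of higher signal, where the mean log2 signal over the arrays was at least 6, 51 of 69 factor probe sets were higher, against 27.7% of all. In 32 of the 55 genes the exposed and control livers did not overlap, where 10.8% of all genes were higher without overlap, and none of the 55 was lower without overlap, where 6.59% of all were.

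After Cd the change was smaller and fewer factors passed the test. On day 1, 15 of 84 probe sets (17.9%) were higher, where 6.39% of all were. None was lower, where 5.27% of all were. At an unadjusted p of 0.05 in limma, 1 member was lower, where 10.5% of all were lower. In simulated data for day 1 after Cd the fit recovered 10% of 1.2-fold and 78% of 1.5-fold rises. For day 1 after Cr it recovered 16% and 82%. The simulation changed 50 probe sets at each fold, while 4609 were higher in the livers after Cr and 1985 after Cd. With fewer changes the adjusted threshold is stricter, so these shares do not carry over to the livers. How many small rises were missed there is not known. By gene, 13 of 55 were higher against 9.3% of all genes, and 10 of 55 were higher without overlap of the groups, against 8.26%. A further 2 genes were lower without overlap, against 7.31% of all genes, namely Eif3f (log2 -0.13, adjusted p = 0.269) and Eif4b (-0.18, adjusted p = 0.262). The median log2 fold change was 0.09, against -0.01 over all probe sets. Without the exposed liver numbered 4, the count of 15 fell to 7. The study's fold limit of 1.8 was passed by 7 factor probe sets after Cr (1.57% of all probe sets) and by none after Cd (1.23% of all).

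**Figure D1:**
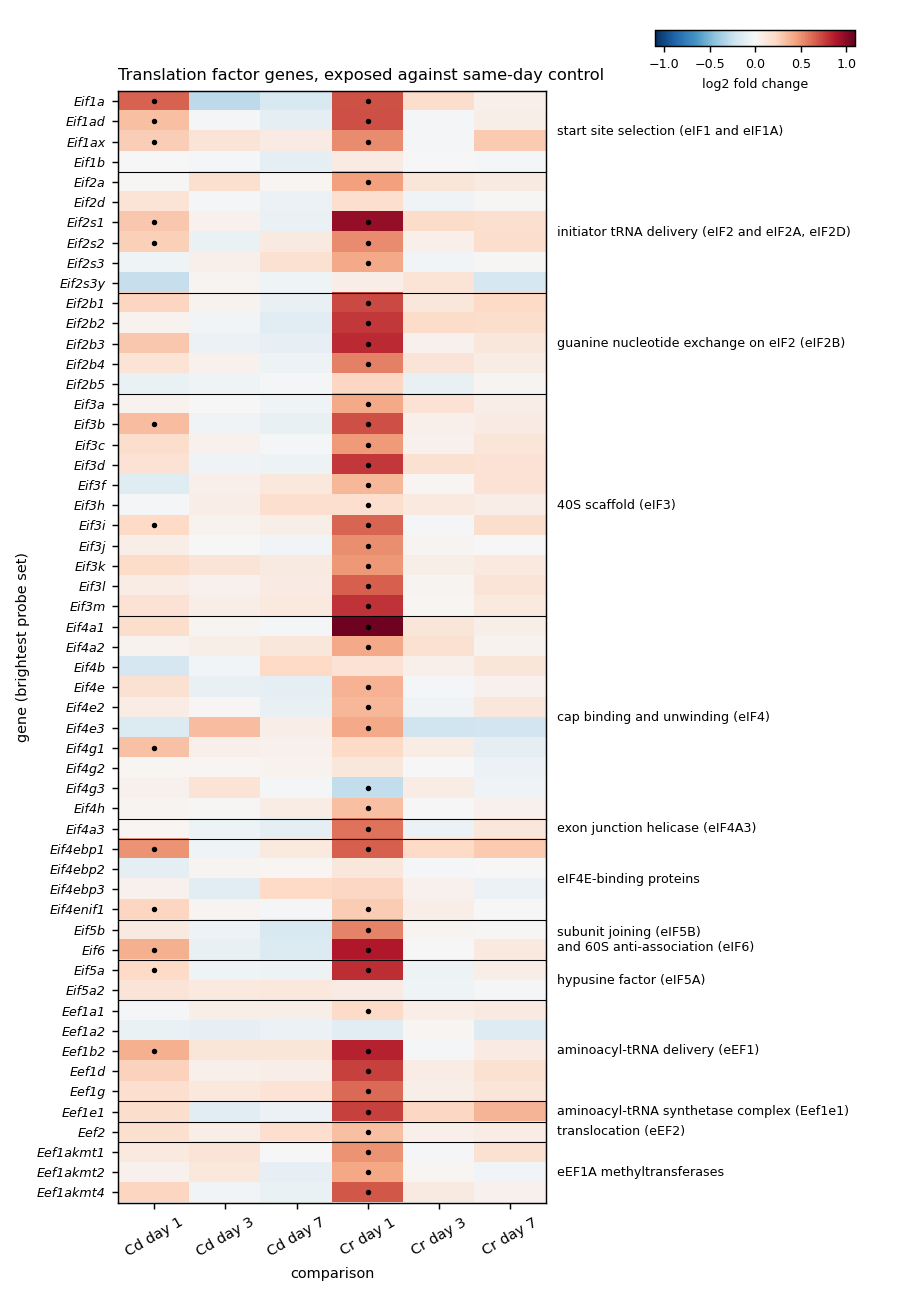
Log2 fold change of 55 translation factor genes (rows, grouped by role) on days 1, 3 and 7 after Cd or Cr (columns), exposed livers against same-day controls. Red is higher and blue lower in exposed livers, and a dot marks an adjusted p of 0.05 or less. Dots fill most of the Cr day 1 column (44 genes), mark 13 genes on Cd day 1, and are missing on days 3 and 7.

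Liver by liver, the rise after Cr was graded. For each liver the deviation of each factor gene from the mean of its same-day controls was taken, and the median over the 55 genes computed. In the 5 Cr-exposed livers of day 1, numbered 1 to 5, this median was 0.63, 0.39, 0.53, 0.65 and 0.24 on the log2 scale, with 51, 50, 53, 51 and 44 genes above the controls' mean. The 5 matching controls ranged from -0.05 to 0.05, so the groups did not overlap, and livers 1 and 4 stood highest and liver 5 lowest. In the 4 Cd-exposed livers of day 1, numbered 1, 2, 4 and 5, it was 0.14, 0.05, 0.24 and 0.12, against -0.03 to 0.05 in controls. Liver 2 of the Cd group was only just above its highest control. The median over all genes lay within 0.02 of 0 in every one of these livers.

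**Figure D2:**
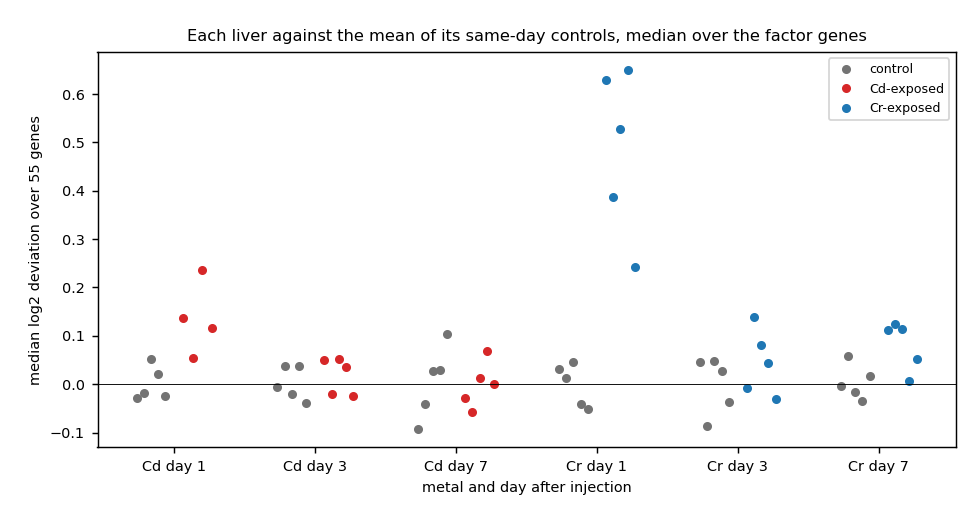
Median log2 deviation of the 55 factor genes from the mean of the same-day controls, 1 point per liver, for each metal and day. Grey points are controls, red Cd-exposed and blue Cr-exposed livers. The Cr-exposed livers of day 1 (0.24 to 0.65) stand above all others, and the next highest is a Cd-exposed liver of day 1 at 0.24.

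Start site selection depends on eIF1 and eIF1A, which hold the scanning ribosome open until the start codon is met. Eif1a, which encodes eIF1A, was the factor that rose most after Cd. Its log2 signals in Cd controls of day 1 were 9.68, 9.91, 10.08, 9.65 and 9.65, and in the exposed livers 10.81, 10.19, 10.44 and 10.35. In Cr controls of day 1 they were 9.79, 9.74, 9.92, 9.62 and 9.76, and in exposed livers 10.34, 10.51, 10.59, 10.39 and 10.49. Neither metal's groups overlapped. The rise was 1.57-fold after Cd (log2 0.65, SE 0.11, adjusted p = 0.000147) and 1.62-fold after Cr (log2 0.70, SE 0.09, adjusted p = 9.33e-07), and the difference between metals did not pass the test. The other 3 probe sets of Eif1a rose after Cr by 0.85 to 1.26 on the log2 scale, and 2 of the 3 rose after Cd by 0.76 and 0.81. The third had a like value after Cd, 0.72 (SE 0.25), with an adjusted p of 0.0599, and its exposed livers, at 8.18 to 8.33, lay above the highest control at 8.11. Eif1ad, which encodes a protein with an eIF1A-like domain, rose by log2 0.33 after Cd (SE 0.07, adjusted p = 0.00147) and by 0.71 after Cr (SE 0.09, adjusted p = 1.56e-06). Of the 4 genes placed in this role group 3 were higher after each metal, Eif1ad among them, and Eif1b stood at -0.01 after Cd and 0.09 after Cr.

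Initiator tRNA is carried by eIF2, a trimer whose alpha subunit, encoded by Eif2s1, is the site of inhibitory phosphorylation. Eif2s1 log2 signals in Cr controls of day 1 were 9.29, 9.72, 9.66, 9.53 and 9.55, and in exposed livers 10.84, 10.25, 10.57, 10.88 and 10.02, every one above the highest control. This was a rise of 1.95-fold (log2 0.96, SE 0.12, adjusted p = 8.01e-07). In Cd controls they were 9.57, 9.82, 9.57, 9.67 and 9.44, and in exposed livers 9.98, 9.79, 9.98 and 9.89, where liver 2 lay below the highest control. The Cd rise of log2 0.30 (SE 0.09, adjusted p = 0.0357) did not pass the test when any of 6 single livers was left out. The beta subunit gene Eif2s2 was higher after both metals (0.52 after Cr, 0.26 after Cd), and the gamma subunit gene Eif2s3 after Cr (0.41) but at -0.05 after Cd. Over the 6 genes of this step 4 were higher after Cr and 2 after Cd.

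The exchange factor eIF2B returns eIF2 to its active form. After Cr, 4 of its 5 subunit genes were higher, with a median log2 fold change of 0.73, and Eif2b5, the catalytic epsilon subunit, had a value of 0.22 (adjusted p = 0.0534). Eif2b3, the gamma subunit, measured 6.10, 6.56, 6.67, 6.604 and 6.38 in Cr controls and 7.55, 6.97, 7.20, 7.71 and 6.98 in exposed livers, without overlap, a rise of 1.77-fold (log2 0.82, SE 0.19, adjusted p = 0.00124). After Cd none of the 5 was higher at the adjusted threshold, and the log2 values ran from -0.07 (Eif2b5) to 0.30 (Eif2b3). The effects of the metals differed for Eif2b1, Eif2b2 and Eif2b4, at -0.49, -0.74 and -0.41 for Cd minus Cr on the log2 scale.

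The eIF3 complex is the scaffold on the small ribosomal subunit that binds the other initiation factors. All 11 of its measured subunit genes were higher 1 day after Cr, from log2 0.19 (Eif3h) to 0.79 (Eif3m), with a median of 0.51. Eif3m measured 10.62, 10.56, 10.76, 10.61 and 10.86 in Cr controls and 11.72, 11.15, 11.61, 11.79 and 11.12 in exposed livers, a rise of 1.73-fold (SE of the log2 value 0.10, adjusted p = 8.09e-07). Eif3d, a subunit that contacts mRNA and can bind the cap, rose 1.72-fold (log2 0.78, SE 0.12, adjusted p = 1.13e-05). After Cd only Eif3b and Eif3i of the 11 passed the test, at log2 0.34 (SE 0.07, adjusted p = 0.0018) and 0.22. Eif3b measured 8.92, 8.95, 9.07, 8.92 and 8.998 in Cd controls and 9.34, 9.11, 9.43 and 9.36 in exposed livers, which did not overlap. Eif3b rose further after Cr, by log2 0.71. The metals differed for 8 of the 11 genes in the test of the difference, each with the larger value after Cr.

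The cap-binding complex eIF4F consists of the cap-binding protein eIF4E, the scaffold eIF4G and the helicase eIF4A, which unwinds the leader of the mRNA. Read on the brightest probe set of each gene, the largest change after Cr was in Eif4a1, which encodes the main eIF4A helicase. Its log2 signals were 11.47, 11.30, 11.37, 11.30 and 11.34 in Cr controls and 12.74, 12.05, 12.57, 12.85 and 11.93 in exposed livers, so livers 2 and 5 stood below the other 3. The rise was 2.10-fold (log2 1.07, SE 0.12, adjusted p = 1.56e-07). After Cd it measured 11.62, 11.42, 11.73 and 11.45 against 11.39, 11.32, 11.42, 11.40 and 11.30 in controls, a log2 difference of 0.19 that did not pass the test (adjusted p = 0.211). Of all genes of the class Eif4a1 had the largest difference between metals, -0.88 for Cd minus Cr (SE 0.15, adjusted p = 6.53e-05).

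The other subunits of eIF4F moved less. Eif4e measured 9.82, 9.93, 10.04, 9.95 and 9.998 in Cr controls and 10.49, 10.07, 10.30, 10.57 and 10.20 in exposed livers, a rise of 1.3-fold (log2 0.38, SE 0.08, adjusted p = 0.000378), and its value after Cd was 0.17 (adjusted p = 0.215). Its other probe sets disagreed with this one, and 1 of them was lower after Cr at -0.28 (adjusted p = 0.0201), with a dim signal. The scaffold genes split. Eif4g1 was the only gene higher after Cd and not after Cr at this threshold, at log2 0.32 (SE 0.11, adjusted p = 0.0494) after Cd and 0.22 (adjusted p = 0.194) after Cr. Its Cd signals were 9.29, 9.44, 9.90, 9.40 and 9.59 in controls and 9.94, 9.84, 9.72 and 9.86 in exposed livers, which overlapped, the call was lost without any of 8 single livers (adjusted p from 0.0545 to 0.15), the metals did not differ by test, and the other 3 probe sets did not pass after Cd. Eif4g3 was the only factor gene lower after Cr, at 8.10, 8.61, 8.51, 8.20 and 8.29 against 8.53, 8.70, 8.76, 8.55 and 8.54 in controls (log2 -0.27, SE 0.08, adjusted p = 0.00988), and liver 2 lay among the controls. Eif4g2, an eIF4G-like protein that does not bind eIF4E, was at 0.13 on its brightest probe set (adjusted p = 0.215) and lower on another, at -0.31 (adjusted p = 0.000406).

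The eIF4E-binding proteins compete with eIF4G for eIF4E and so hold back cap-dependent initiation. Eif4ebp1, the best known of them, rose after both metals. It measured 7.67, 7.71, 7.62, 7.63 and 7.87 in Cd controls and 8.24, 8.21, 8.08 and 8.24 in exposed livers, without overlap, a rise of 1.41-fold (log2 0.50, SE 0.09, adjusted p = 0.000299). After Cr it measured 8.49, 7.999, 8.45, 8.60 and 8.72 against 8.07, 7.65, 7.61, 7.86 and 7.77, where liver 2 lay below the highest control, and the rise was 1.58-fold (log2 0.66, SE 0.13, adjusted p = 0.000316). Eif4enif1, which carries eIF4E into the nucleus, was also higher after both, and Eif4ebp2 and Eif4ebp3 passed after neither metal, with values from -0.10 to 0.23.

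**Figure D3:**
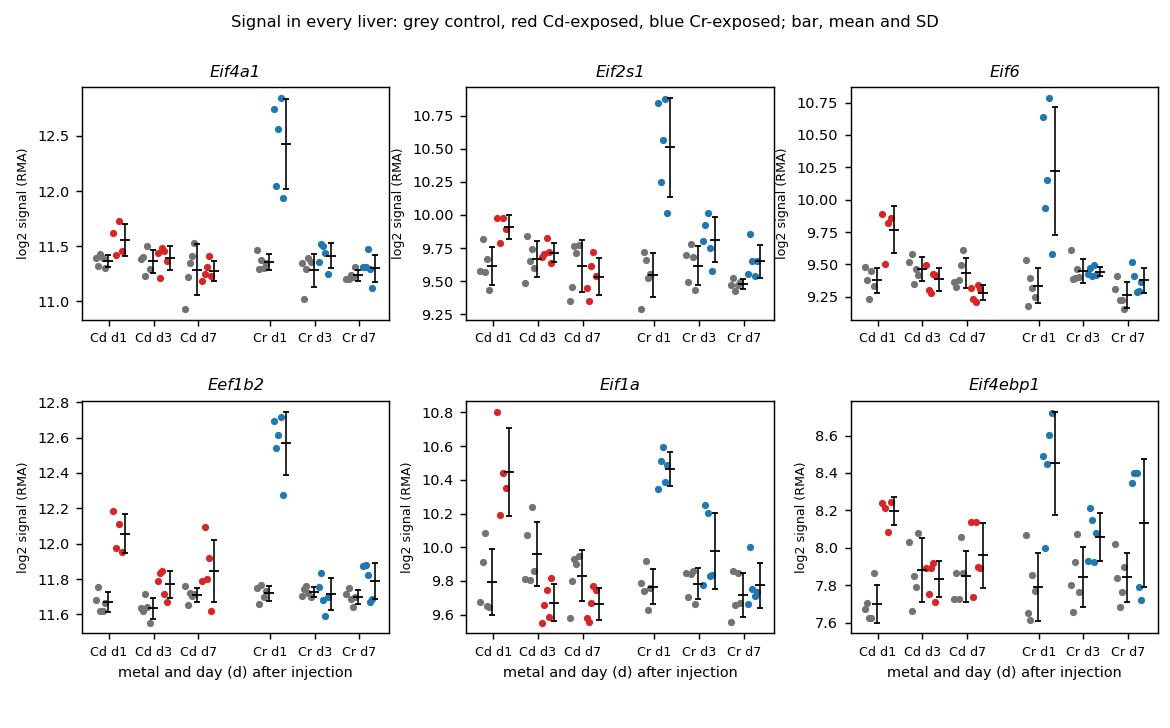
Log2 RMA signal of Eif4a1, Eif2s1, Eif6, Eef1b2, Eif1a and Eif4ebp1 in every liver (1 point each), by metal and day (d). Grey points are controls, red Cd-exposed and blue Cr-exposed livers, and the bar beside each group gives its mean and SD. On day 1 the Cr-exposed livers rise in all 6 genes, while after Cd Eif1a rises by 0.65 and Eif4a1 differs by 0.19 on the log2 scale.

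Subunit joining is driven by eIF5B, and eIF6 keeps free large subunits from joining too early and also serves in their assembly. Eif6 measured 9.54, 9.18, 9.40, 9.32 and 9.25 in Cr controls and 10.64, 9.94, 10.15, 10.79 and 9.58 in exposed livers, a rise of 1.85-fold (log2 0.88, SE 0.13, adjusted p = 1.03e-05). In Cd controls it measured 9.48, 9.38, 9.23, 9.45 and 9.34 and in exposed livers 9.89, 9.503, 9.82 and 9.86, a rise of 1.31-fold (log2 0.39, SE 0.08, adjusted p = 0.000675). In both series the exposed livers stood above every control, by little in liver 5 after Cr and liver 2 after Cd. Eif5b was higher after Cr (0.55) and had a value of 0.10 after Cd. Eif5a encodes the factor that carries hypusine and eases peptide bond formation at slow sequences. It rose 1.75-fold after Cr, from 10.73, 10.43, 10.52, 10.52 and 10.59 to 11.53, 11.06, 11.39, 11.63 and 11.23 (log2 0.81, SE 0.08, adjusted p = 4.93e-08). After Cd its rise was 1.16-fold (log2 0.22, SE 0.06, adjusted p = 0.0235), lost when any of 4 single livers was left out. Eif5a2, whose signal was dim, passed after neither metal.

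In elongation, eEF1A brings each aminoacyl-tRNA to the ribosome and the eEF1B complex reloads it with GTP. The eEF1B subunits rose more than eEF1A itself. Eef1b2 measured 11.75, 11.66, 11.76, 11.70 and 11.73 in Cr controls and 12.70, 12.54, 12.61, 12.72 and 12.28 in exposed livers, a rise of 1.8-fold with the smallest p of the class (log2 0.85, SE 0.07, adjusted p = 8.26e-10). After Cd it measured 12.18, 11.98, 12.11 and 11.95 against 11.68, 11.76, 11.62, 11.62 and 11.67, a rise of 1.31-fold (log2 0.39, SE 0.07, adjusted p = 0.000301), and neither metal's groups overlapped. The other eEF1B subunits, Eef1d and Eef1g, were higher after Cr by 0.75 and 0.62, with values of 0.25 and 0.19 after Cd that did not pass. Eef1a1 was 13.58, 13.50, 13.50, 13.71 and 13.40 in Cr-exposed livers against 13.29, 13.42, 13.39, 13.29 and 13.28, a rise of 1.15-fold (log2 0.21, SE 0.06, adjusted p = 0.0112) that was lost without exposed liver 4, and liver 5 lay within the range of the controls. After Cd its value was -0.02 (adjusted p = 0.921).

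The translocase gene Eef2 rose 1.26-fold after Cr (log2 0.33, SE 0.08, adjusted p = 0.00221). Its signals there were 12.30, 12.40, 12.27, 12.35 and 12.05 against 12.05, 11.91, 12.02, 11.98 and 11.73, so that liver 5 met the highest control. After Cd every exposed liver, at 12.001, 11.96, 12.04 and 11.98, was above the controls, at 11.78 to 11.88, yet the log2 difference of 0.17 did not pass (adjusted p = 0.237). Eef1e1, which despite its name is a member of the aminoacyl-tRNA synthetase complex, and all 3 measured methyltransferases of eEF1A (Eef1akmt1, Eef1akmt2 and Eef1akmt4) were higher after Cr, from 0.43 to 0.75, and none of these passed after Cd.

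In all, 12 factor genes were higher on day 1 after both metals, 31 after Cr alone and 1 after Cd alone at the adjusted threshold. Of all genes, 21.5% were higher after Cr and 9.3% after Cd, and the share higher after both was not counted. The test of the difference itself gave 31 of 84 probe sets, 30 with the lower and 1 with the higher value after Cd, where 7.17% and 4.63% of all probe sets differed in those directions. By gene there were 27 such differences, all with the lower value after Cd, and the share of all genes was not counted. For Eif1a, Eif4ebp1 and Eif4g1 the test did not pass. Leaving out Cr-exposed liver 4 brought the 31 to 20. On days 3 and 7 no factor probe set differed between metals in limma, where 0.0129% and 0% of all probe sets were higher and lower after Cd on day 3, and 0.161% and 0.122% on day 7. The metals had separate controls and were given at doses that cannot be matched, so this sets 1 exposure beside the other and does not rank the metals.

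**Figure D4:**
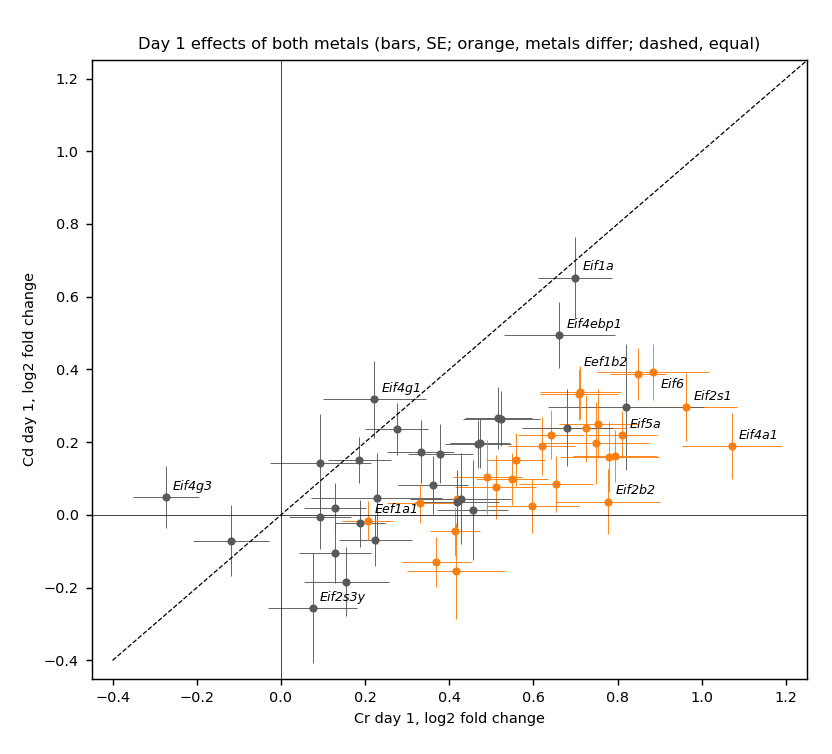
Day 1 log2 fold change of the 55 factor genes after Cr (horizontal) and after Cd (vertical), 1 point per gene with bars of 1 SE. Orange points are the 27 genes whose effect differed between metals, and the dashed line marks equal effects. Most genes lie below the line, Eif1a and Eif4ebp1 lie close to it, and Eif4g3 is the gene farthest to the left.

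By days 3 and 7 the changes were no longer detected. No factor probe set passed in limma at an adjusted p of 0.05 on day 3 or 7 after either metal. The shares of all probe sets higher and lower were then 0.541% and 0.0709% on day 3 after Cd, 0.00644% in each direction on day 7 after Cd, 0% and 0.00322% on day 3 after Cr, and 0.0354% and 0.0902% on day 7 after Cr. At an unadjusted p of 0.05 the members gave 4 higher and 2 lower on day 3 after Cd and 4 higher and 3 lower on day 7, against 5.51% and 4.32%, and 3.47% and 3.24%, of all probe sets. After Cr they gave 6 higher and 0 lower on day 3, against 3.61% and 3.26%, and 6 higher and 0 lower on day 7, against 4.5% and 3.94%. The median log2 fold change of the 84 was 0.03 on day 3 and 0.07 on day 7 after Cr, and 0.01 and -0.02 after Cd. On day 7 after Cr, 63 of the 84 fitted values were above 0, where 50.5% of all were, and the median deviation of the 5 exposed livers was 0.11, 0.12, 0.11, 0.01 and 0.05 against -0.04 to 0.06 in controls, so the groups overlapped.

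The fall back from day 1 was itself tested. After Cr the effect on day 1 differed from that on day 3 in 38 of 84 probe sets, 37 of them with the higher value on day 1 (7.01% of all probe sets, and 4.53% with the lower), and from that on day 7 in 35, 34 of them with the higher value on day 1 (6.23% of all, and 4.86% with the lower). Eif4a1 had the largest of these differences among the genes, 0.94 against day 3 and 1.01 against day 7 on the log2 scale. After Cd the counts were 7 and 6, all with the higher value on day 1 (2.35% and 2.91% of all, with 2.81% and 2.17% lower), and Eif1a gave the largest, 0.94 and 0.82. Eif1a was at -0.29 on day 3 after Cd (unadjusted p = 0.0119, adjusted p = 0.291). Eif6, Eif3b and Eif1ad also differed between day 1 and both later days after Cd, and Eif4ebp1 between days 1 and 3.

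Genes that act on these factors changed in part, and the counts stand against 21.5% of all genes higher and 12.8% lower on day 1 after Cr and 9.3% and 7.7% after Cd. Of the 7 measured eIF2 kinase and phosphatase genes, Eif2ak2, the double-stranded RNA sensor PKR, rose by log2 0.95 after Cd (SE 0.13, adjusted p = 4.52e-06) and had a value of 0.27 after Cr (adjusted p = 0.0557). Eif2ak3, the endoplasmic reticulum kinase PERK, rose by 0.67 after Cd and 0.37 after Cr. Eif2ak4, the amino acid sensor GCN2, and Nck1 rose after Cr (0.36 and 0.44), and Ppp1r15b, a subunit of the eIF2 phosphatase, fell by 0.58 on the log2 scale. Among 8 genes that modify eIF5A and eEF2, 6 were higher after Cr, including Dhps (0.32) and Dohh (0.52), which make hypusine, and Dph3 (0.54), which serves diphthamide synthesis on eEF2. After Cd only Dph3 of the 8 passed, at 0.45.

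Release and recycling factors, which end translation and free the ribosome, were also higher after Cr. Of 7 genes, 5 passed: the release factors Etf1 (0.69) and Gspt1 (0.57), and the recycling and rescue factors Abce1 (0.45), Pelo (0.81) and Denr (0.59). Pelo and Denr were also the 2 of 7 higher after Cd (0.54 and 0.30). Of 9 partners of eIF4F, 3 were higher after Cr (Pabpc4, Paip2 and Ddx3x) and 1 after Cd (Paip2), near the shares of all genes. The mTOR complex 1 list gave 1 higher and 3 lower of 10 after Cr, among them the S6 kinase gene Rps6kb1, which fell by 0.51, and 0 higher and 1 lower (Tsc1) after Cd. The mitochondrial translation factors gave 2 higher and 2 lower of 8 after Cr and 0 higher and 1 lower after Cd, also near those shares. On days 3 and 7, 1 gene of these lists passed, Ddit4 on day 7 after Cr (1.57).

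Whole liver holds several cell types, and in such tissue fewer cells of a type and less RNA per cell cannot be told apart. None of 5 hepatocyte markers passed on day 1 after Cr and 1 of 5, Ttr, was lower after Cd (-0.18), with the mean log2 signal over 5 markers at 14.24 to 14.31 in Cr-exposed and 14.20 to 14.25 in control livers, and at 14.15 to 14.25 against 14.18 to 14.28 after Cd. After Cd all 5 measured Kupffer cell markers were lower on day 1, with a mean of 4.76 to 7.96 in exposed and 8.93 to 9.49 in control livers, all 5 cycling cell markers were lower, and 3 of 4 neutrophil markers were higher. After Cr, 1 of 5 Kupffer markers and 2 of 4 neutrophil markers were higher. None of the 5 cycling cell markers passed after Cr, but their median log2 fold change was -0.72, and their mean was 6.68 to 8.23 in exposed and 8.27 to 8.68 in control livers, without overlap. The part of these cell types in the values of the translation factors was not tested.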

How the data were processed

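RNA from whole livers of 59 rats was measured on Affymetrix rat genome arrays. Per the labels and methods, the authors adjusted background, normalized and summarized the arrays by RMA in Partek, and the deposited values are log2 signals, which were used as deposited. The number of arrays limits precision, and depth does not apply. The 57 control probe sets were left out of 31099, and genes were named from the array annotation, in which 20826 probe sets have 1 symbol, 436 several and 9780 none. Groups came from the labels. Livers of 1 group are separate animals.

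For each metal, limma (version 3.58.1, R version 4.3.3) was fitted to its 6 groups, with each exposed day set against the controls of that day, and the metals were compared in 1 fit of 12 groups. Benjamini-Hochberg adjustment ran over all 31042 probe sets at 0.05. The fits were tested on simulated data. Promoters were searched with Python 3.11.15. Alternatives were pooled controls as in the methods, a floor of 6 on the mean log2 signal and a fold limit of 1.8. Others were the number of detected probe sets, variance trend, no variance moderation, array weights, another quantile normalization and 1 fit of both metals. The last were the replicate number as a block, 1 probe set per gene, and leaving out each liver. The block was a term in the fit for each replicate number of a metal and day.

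Genes were named by rule: per metal on day 1 the 8 largest rises and 5 largest falls that passed, the 3 largest each way on later days, and Eef1a1, Eef2, Eif2s1, Eif4e, Eif4ebp1, Eif5a and Eif6. Other genes are named as members of a role group or list, after their values were seen. The members, role groups and lists were chosen with earlier results of these data known. Marker lists for endothelial, stellate, bile duct, lymphoid and red blood cells were also counted on day 1. After Cd they gave 2 higher of 5, 0 of 6, 2 lower of 4, 0 of 5 and 1 lower of 3, and after Cr 2 higher of 5, 1 of 6, 2 of 4, 1 of 5 and 0 of 3.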

Additional observations from a re-analysis of the deposited data

Results flagged for a closer look

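Of 204 groups of 4 or 5 livers checked over 17 named genes, 5 held a liver set apart from the rest of its group, and chance alone sets apart about 1 group in 20. These were Eef1a1 in Cd-exposed liver 1 of day 1 (13.16) and in Cr-exposed liver 2 of day 7 (13.47), Eif1a in Cr-exposed liver 2 of day 7 (10), Eif3b in Cd-exposed liver 5 of day 3 (8.88), and Eif4a1 in Cr control liver 2 of day 3 (11.02).

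Effects that differed between days or metals in limma were marked too, and all values are log2 differences. After Cd, 7 factor probe sets differed between days 1 and 3 and 6 between days 1 and 7. Day 1 minus day 3 was 0.94 for Eif1a, 0.34 for Eif1ad, 0.38 for Eif3b, 0.54 for Eif4ebp1 and 0.47 for Eif6, and day 1 minus day 7 was 0.82 for Eif1a, 0.44 for Eif1ad, 0.42 for Eif3b and 0.54 for Eif6. After Cr, 38 and 35 probe sets differed. Day 1 minus day 3 was 0.94 for Eif4a1, 0.89 for Eif6, 0.87 for Eif5a, 0.86 for Eef1b2, 0.77 for Eif3m, 0.76 for Eif2s1, 0.72 for Eif1ad, 0.66 for Eif3b, 0.61 for Eif3d, 0.50 for Eif1a, 0.39 for Eif4e and -0.35 for Eif4g3. Day 1 minus day 7 was 1.01 for Eif4a1, 0.79 for Eif2s1, 0.77 for Eif6, 0.76 for Eef1b2, 0.73 for Eif5a, 0.69 for Eif3m, 0.64 for both Eif1a and Eif1ad, 0.62 for both Eif3b and Eif3d, and 0.33 for Eif4e.

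On day 1 the metals differed in 31 factor probe sets. Cd minus Cr was -0.88 for Eif4a1, -0.67 for Eif2s1, -0.63 for Eif3m, -0.62 for Eif3d, -0.59 for Eif5a, -0.49 for Eif6, -0.46 for Eef1b2, -0.38 for Eif1ad, -0.37 for Eif3b and -0.22 for Eef1a1. In each of these 10 genes the larger value was after Cr.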

How the results depend on the processing

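Most counts and medians kept their size under the alternatives (158 of 174 counts and 59 of 60 medians, single-liver omissions aside), and 252 of 255 counts did so when 1 liver was left out. With the fold limit of 1.8, higher probe sets on day 1 numbered 7 after Cr and 0 after Cd, lower ones after Cr 0, day 1 differences from days 3 and 7 numbered 6 and 3 after Cr and 3 and 2 after Cd, and differences between metals 2. With 1 probe set per gene the Cd day 1 median was 0.15 and 1 gene was lower after Cr. At a mean signal of 6 or more, Cd day 1 minus day 7 gave 10. Pooled controls gave 1 lower after Cd on day 1 and brought Eef2 after Cd past the threshold (0.21, adjusted p = 0.0439). On day 3 after Cd, the detected number, array weights and 1 fit of both metals gave 1 higher each. Eif4g1 and Eif2s1 after Cd did not pass with array weights or 1 fit of both metals (adjusted p from 0.0565 to 0.0875), nor Eif4g1 without variance moderation (adjusted p = 0.0592). The causes were not tested.

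With 1 liver left out, higher probe sets on day 1 ranged from 51 to 58 after Cr and from 7 to 15 after Cd, and lower ones after Cr from 2 to 3. On day 3 after Cd 0 to 2 were higher, 2 without exposed liver 5. Differences between metals on day 1 ranged from 20 to 41, Cr day 1 minus day 3 from 31 to 45 and minus day 7 from 26 to 41, and the same after Cd from 5 to 8 in both. Eef1a1 after Cd, at -0.02, changed sign to 0.0056 on quantile normalization, and ranged from -0.0418 to 0.0127 with 1 liver left out (0.0019 without control liver 3). Eif4g3 and Eef1a1 after Cr each lost their call once, without exposed liver 1 (-0.21, adjusted p = 0.0515) and without exposed liver 4 (0.16, adjusted p = 0.054).

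Replicate numbers were not taken to pair the livers, since nothing in the labels ties a number to a litter, batch or day. Livers of 1 number were nevertheless more alike on average. What the number stands for was not tested, and the main p-values come from limma fits without a replicate block. Over 29 pairs of control and exposed livers with 1 number, deviations correlated at 0.127 on average (-0.125 to 0.299), against -0.0315 for other numbers, 18 pairs passed 0.1, and 16 of 29 exposed livers correlated best with the control of their number. The replicate block gave 1 lower on day 1 and 1 higher on day 3 after Cd, put Eef1a1 after Cd at 0.0020, and moved no other count by over 1.5 times.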
